A study of Mus musculus with 20 samples.

Results

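Lysozyme c and Mpeg1 are weapons of phagocytes, and their messenger RNA was followed here through single mouse neocortices. The members are all probe sets whose annotation names Lyz1, Lyz2 or Mpeg1, which were 5 of the 45101 probe sets on each array and stand for 3 of 18193 named genes. Lyz1 had 3 probe sets, Lyz2 had 1 and Mpeg1 had 1, and 0 probe sets named Lyz1 or Lyz2 together with another gene. The members were picked because their signal in the neocortex was higher in old controls than in young ones, so their differences with age are given as a description without a test. The diets of the old mice and the spread between single mice are what could be compared.

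The data are expression arrays of neocortex from 20 male B6C3F1 mice, a first-generation hybrid of the B6 and C3H strains, housed singly, in 4 groups of 5 mice with 1 array per mouse. The α-tocopherol group was 30 months old and had eaten a diet with 1000 mg/kg α-tocopherol, the main form of vitamin E in tissues, since the age of 15 months. The mixture group was 30 months old and had received α- and γ-tocopherol, another form of vitamin E, at 500 mg/kg each, also since the age of 15 months. Old controls had reached 30 months and young controls 5 months, all fed the control diet, whose own tocopherol content the labels do not give. No mouse carried a transgene or mutation by the labels, and the tissue was whole neocortex, so a signal is a mean over all its cells. In such tissue a change in the number of cells of a type and a change in RNA per cell cannot be told apart.

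Lysozyme c cuts the peptidoglycan of bacterial cell walls. Mice carry a pair of neighbouring genes for it. Lyz2 is the form of macrophages, neutrophils and other myeloid cells, and Lyz1 is best known from Paneth cells, the antimicrobial cells of the small intestine. Mpeg1 encodes perforin-2, a protein of macrophages and microglia that carries the membrane attack complex/perforin (MACPF) domain and makes pores in bacteria inside phagosomes. Microglia, the resident macrophages of brain tissue, transcribe Mpeg1 at rest, whereas Lyz2 is commonly used to mark peripheral myeloid cells.

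The promoters are shown because those of the neighbouring lysozyme genes are alike next to the start, while that of Mpeg1 differs from both. In the RefSeq table of GRCm38.p6, the 250 bases before the start of Lyz1 lie at chr10:117292869-117293118 and those of Lyz2 at chr10:117282273-117282522, both on the minus strand, and those of Mpeg1 at chr19:12460520-12460769 on the plus strand. Each runs 5′ to 3′ along its gene and ends at the base before the start, and capitals mark AGGAAG or its reverse complement CTTCCT. This is an extended form of GGAA, the core bound by ETS factors such as PU.1, the master regulator of macrophages. The shorter GGAA was not searched, so a window without AGGAAG may still hold it.
Lyz1: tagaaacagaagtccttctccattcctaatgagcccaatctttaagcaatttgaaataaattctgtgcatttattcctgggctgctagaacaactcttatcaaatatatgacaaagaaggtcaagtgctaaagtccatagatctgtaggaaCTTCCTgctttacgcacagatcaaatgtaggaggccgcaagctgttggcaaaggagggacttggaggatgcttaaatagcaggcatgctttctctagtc
Lyz2: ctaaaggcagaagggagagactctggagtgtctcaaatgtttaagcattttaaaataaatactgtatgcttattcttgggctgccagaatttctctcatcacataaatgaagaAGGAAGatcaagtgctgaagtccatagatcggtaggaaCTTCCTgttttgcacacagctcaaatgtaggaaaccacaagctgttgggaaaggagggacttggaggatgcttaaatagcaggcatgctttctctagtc
Mpeg1: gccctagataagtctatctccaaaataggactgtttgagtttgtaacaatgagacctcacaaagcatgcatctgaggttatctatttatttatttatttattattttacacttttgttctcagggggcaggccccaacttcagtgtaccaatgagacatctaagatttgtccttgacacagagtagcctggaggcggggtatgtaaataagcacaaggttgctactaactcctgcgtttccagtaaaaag
The starts of Lyz1 and Lyz2 lie 10596 bases apart with 0 other genes of that table between them. Compared base by base without gaps, the Lyz1 and Lyz2 windows were identical at 60.8% of 250 positions. The likeness lay near the start, with 92 of the last 100 bases identical against 60 of the first 150, and Mpeg1 was identical to Lyz2 at 28.0% and to Lyz1 at 30.4% of positions. Searched on both strands, AGGAAG occurred 1 time for Lyz1 (first base at -99 from the start), 2 times for Lyz2 (-99 and -137) and 0 times for Mpeg1, and 29.48% of 32851 promoters of the same length held it. The longer PU.1 motif GAGGAAGT, which contains AGGAAG, was in 0 of the 3 and in 2.44% of all promoters. The C/EBP motif TTGCNNAA was in Lyz1 alone of the 3 (at -209) and in 9.56% of all promoters. The AP-1 motif TGANTCA (6.75% of all promoters) and the TATA box TATAAA (12.37%) were in none of the 3. These matches describe letters and not binding.

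Every array had been scaled by the submitters to the same trimmed mean, and pairs of arrays correlated at 0.938 to 0.982 with 0 identical columns. Among α-tocopherol mice the median signal of an array averaged 296 ± 15, among mixture mice 308 ± 17, among old controls 292 ± 12 and among young controls 321 ± 6 (SD, n = 5 each). The 3′ to 5′ signal ratio of the β-actin control probe sets, a measure of RNA integrity, averaged 1.67 ± 0.39 in α-tocopherol, 1.43 ± 0.15 in mixture, 2.04 ± 0.34 in old control and 1.52 ± 0.14 in young control mice, and was highest in old control mouse 3 among old control mice at 2.52. The probe sets of neocortical projection neurons summed to signals of 60460 to 68591 in α-tocopherol, 57571 to 60087 in mixture, 63675 to 74136 in old control and 58103 to 60394 in young control mice. Old control mouse 3 stood apart in several myeloid markers, as described below, so values that rest on it are given with and without it.

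Lyz2 was measured by probe set 1423547_at, the only lysozyme probe set here whose name does not mark possible cross-hybridisation and which passed the filter on dim probe sets. In mice 1 to 5 its signal was 1318, 899, 958, 1147 and 1246 in the α-tocopherol group, 1096, 1157, 1656, 1288 and 1378 in the mixture group, 667, 1006, 2837, 1074 and 1156 in old controls, and 650, 642, 725, 585 and 685 in young controls. Of the 15 old mice, 14 lay above the highest young mouse. The exception was old control mouse 1. Old control mouse 3 had the highest signal of all 20 mice. On the scale log2(signal + 16), old controls lay 0.84 above young controls, α-tocopherol mice 0.73 and mixture mice 0.97. Without mouse 3 the old control difference was 0.53.

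Lyz1 probe set 1436996_x_at showed the largest rise with age of any probe set in the table that was tested, as the choice of members implies. Its signal was 1995, 936, 927, 1240 and 1749 in α-tocopherol mice and 1341, 1690, 2399, 1480 and 1341 in mixture mice. It was 843, 1526, 4554, 1408 and 1621 in old controls against 183, 222, 123, 83 and 77 in young controls. All 15 old mice exceeded the highest young mouse, and mouse 3 again was the highest of 20. The old control difference was 3.57 on the log2 scale, first of 27022 when ranked from the highest, against 3.20 for α-tocopherol and 3.50 for mixture mice. Without old control mouse 3 it was 3.21. The young signals lay near the filter limit of 184 or below it, so the size of this difference depends on the constant added before the logarithm: it was 3.73 with 1 and 3.18 with 64 in place of 16.

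The second Lyz1 probe set of this kind, 1439426_x_at, gave the same picture at its own scale. Its signal was 538, 371, 458, 431 and 532 in α-tocopherol mice, 527, 556, 668, 745 and 628 in mixture mice, 282, 485, 1478, 415 and 490 in old controls and 150, 81, 51, 71 and 24 in young controls. No old mouse overlapped with the young ones. The old control difference was 2.73, rank 3 of 27022, and 2.37 without mouse 3. α-Tocopherol mice lay 2.54 and mixture mice 2.95 above young controls.

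The remaining Lyz1 probe set, 1450822_at, did not share the pattern. Its signal was 112, 153, 213, 115 and 142 in α-tocopherol mice, 118, 161, 155, 154 and 220 in mixture mice, 164, 101, 234, 102 and 306 in old controls and 124, 249, 116, 149 and 121 in young controls. The groups overlapped, with 1 of 15 old mice above the highest young mouse, and old controls lay 0.17 above young controls on the log2 scale. Its mean stood at percentile 36.0 of all probe sets and below the filter limit, so it was left out of the tests. The annotation ties this probe set to a RefSeq transcript of Lyz1 and the pair marked x_at to expressed sequence tags. Which of the lysozyme transcripts the x_at pair detects was not tested, and their signal is given under the annotation's name.

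Mpeg1 was 2.23-fold higher in old controls than in young ones on the log2(signal + 16) scale, and its old mice were close together. Probe set 1427076_at gave 1297, 1229, 1450, 1354 and 1560 in α-tocopherol mice, 1234, 1251, 1397, 1200 and 1171 in mixture mice, 1139, 1238, 1271, 1192 and 1339 in old controls and 503, 527, 632, 427 and 675 in young controls. All 15 old mice exceeded the highest young mouse, and old control mouse 3 lay inside its group. Against the young controls, which all 3 comparisons share, the log2 difference was 1.31 for α-tocopherol mice, 1.17 for mixture mice and 1.15 for old controls. Over all tested probe sets, 6.74% lay above the young controls without overlap in α-tocopherol mice, 5.72% in mixture mice, 7.09% in old controls and 1.85% in all 3 old groups at once. The 3 member probe sets without overlap in all 3 old groups were chosen on this contrast, and nothing is read from their number.

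**Figure D1:**
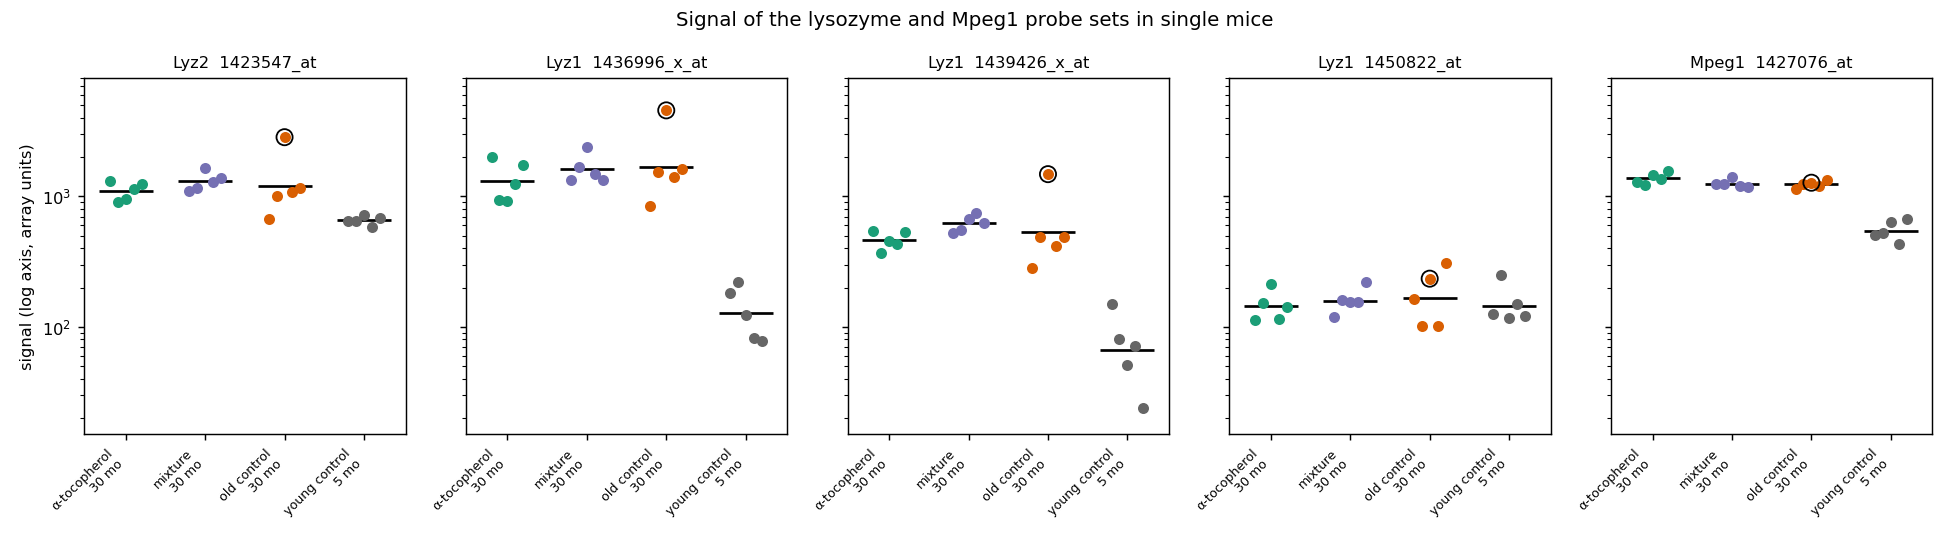
Signal of each lysozyme and Mpeg1 probe set in single mice on a log axis in array units, by group with ages in months (mo). Points are mice, black bars are group means of log2(signal + 16) turned back into signal (n = 5), and the ring marks old control mouse 3, which is highest in the Lyz2 panel and both Lyz1 x_at panels and lies within its group for Mpeg1.

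Among old mice, Lyz2 and the Lyz1 x_at pair varied more within a group than Mpeg1. In old controls the coefficient of variation of the signal was 63.3% for Lyz2, 73.6% for 1436996_x_at and 76.4% for 1439426_x_at, against 6.14% for Mpeg1. Without old control mouse 3 it was 22.0%, 25.8%, 23.2% and 6.90%, so most of the lysozyme spread in that group lay in 1 mouse. In α-tocopherol mice it was 16.2% for Lyz2, 35.3% for 1436996_x_at, 15.1% for 1439426_x_at and 9.44% for Mpeg1. In mixture mice it was 16.7%, 26.8%, 14.0% and 7.00% in the same order. In young controls it was 7.91% for Lyz2, 46.0% for 1436996_x_at, 62.2% for 1439426_x_at and 18.1% for Mpeg1, so there Lyz2 varied less than Mpeg1.

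The lysozyme probe sets also moved together from mouse to mouse. Over the 15 old mice, with each diet group's mean removed, Lyz2 correlated with 1436996_x_at at Pearson r = 0.944 (adjusted p = 0.0021 over 10 pairs by 100000 permutations within diet groups, two-sided) and Spearman rho = 0.826 (adjusted permutation p = 0.00615). With 1439426_x_at it correlated at r = 0.956 (adjusted permutation p = 0.0034) and rho = 0.843 (adjusted permutation p = 0.00615). The Lyz1 x_at pair correlated at r = 0.889 (adjusted permutation p = 0.0057) and rho = 0.672 (adjusted permutation p = 0.0307). All 3 relations also passed the threshold without mouse 3, where r was 0.879, 0.839 and 0.737 (adjusted permutation p = 0.0108, 0.01505 and 0.02757, n = 14). Leaving out both mice farthest from the median, old control mice 3 and 1, gave r = 0.841, 0.738 and 0.628 (n = 13). Whether the x_at pair binds Lyz2 transcripts was not tested.

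Lyz1 1450822_at and Mpeg1 did not follow the other lysozyme probe sets past the threshold. Probe set 1450822_at had r = 0.262 with Lyz2, 0.113 with 1436996_x_at and 0.307 with 1439426_x_at, with adjusted permutation p of 0.699, 0.830 and 0.699. Mpeg1 had r = 0.388, 0.463 and 0.344 with the same 3 probe sets, with adjusted permutation p of 0.237, 0.211 and 0.281. Without mouse 3 the Mpeg1 values were 0.525, 0.559 and 0.505 (adjusted permutation p = 0.137 each, n = 14).

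**Figure D2:**
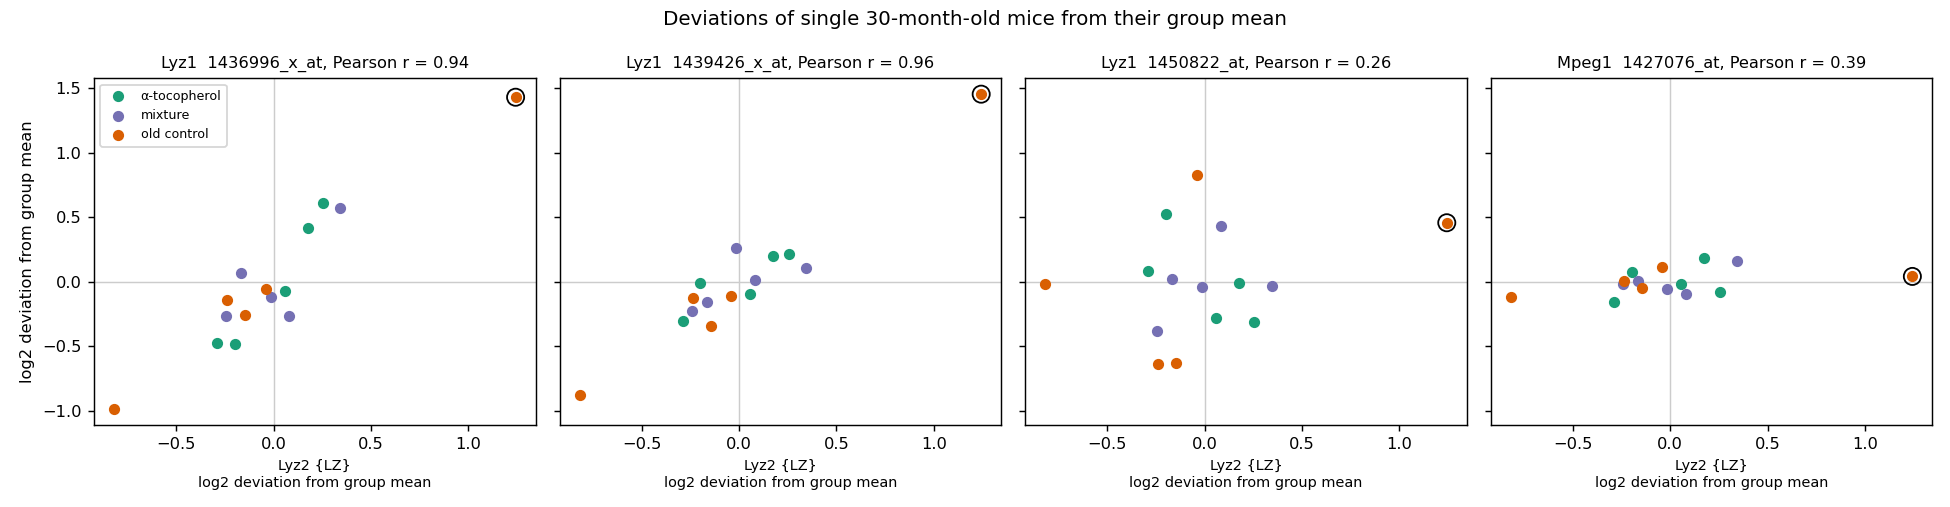
Deviation of single 30-month-old mice from their diet group's mean on the log2(signal + 16) scale, with Lyz2 on the x axis and each other probe set on the y axis (15 mice). The Lyz1 x_at pair rises with Lyz2 (r of 0.94 and 0.96), 1450822_at and Mpeg1 do so less (0.26 and 0.39), and the ring marks old control mouse 3.

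No lysozyme or Mpeg1 probe set passed the threshold between diets. Against old controls, α-tocopherol mice differed by -0.11 ± 0.23 for Lyz2, -0.36 ± 0.33 for 1436996_x_at, -0.19 ± 0.33 for 1439426_x_at and 0.15 ± 0.10 for Mpeg1 (log2 difference ± SE, n = 5 per group, limma, adjusted p of 0.962, 0.915, 0.957 and 0.899). The 95% intervals ran from -0.59 to 0.37 for Lyz2, from -1.05 to 0.33 and from -0.88 to 0.49 for the Lyz1 pair, and from -0.06 to 0.37 for Mpeg1. The lysozyme intervals therefore reach to larger falls than that of Mpeg1, and among them only that of 1439426_x_at reaches to larger rises. In this comparison limma called 0 of 27022 probe sets (0%), 1473 had an unadjusted p under 0.05, and the lowest adjusted p was 0.883.

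Mixture mice did not differ from old controls past the threshold either. The differences were 0.13 ± 0.23 for Lyz2, -0.06 ± 0.33 for 1436996_x_at, 0.22 ± 0.33 for 1439426_x_at and 0.02 ± 0.10 for Mpeg1 (limma, adjusted p of 0.805, 0.940, 0.763 and 0.950), with intervals from -0.35 to 0.60, -0.75 to 0.63, -0.46 to 0.90 and -0.20 to 0.23. In the same comparison 970 probe sets (3.59%) were called, 350 higher and 620 lower, and 0 when the β-actin ratio was added as a covariate. Removing old control mouse 3 turned the sign of the α-tocopherol difference to 0.20 for Lyz2 and 0.17 for 1439426_x_at and of the mixture difference to 0.29 for 1436996_x_at, with none called.

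The difference in means between mixture and α-tocopherol mice uses no mouse on which the members were chosen. Its SE, interval and p do, since the fit shares 1 estimate of the spread over all 20 arrays. For 1439426_x_at the log2 SD was 0.22 in α-tocopherol and 0.20 in mixture mice, against 0.87 in old and 0.75 in young controls. Both diets hold α-tocopherol, and γ-tocopherol differs from it by lacking a methyl group on its ring. The differences were 0.24 ± 0.23 for Lyz2, 0.30 ± 0.33 for 1436996_x_at, 0.41 ± 0.33 for 1439426_x_at and -0.14 ± 0.10 for Mpeg1 (limma, adjusted p of 0.833, 0.856, 0.790 and 0.777). Their 95% intervals ran from -0.24 to 0.71, -0.39 to 0.99, -0.27 to 1.10 and -0.35 to 0.08. Of 5 mixture mice, those above the highest α-tocopherol mouse were 2 for Lyz2, 1 for 1436996_x_at, 4 for 1439426_x_at, 1 for 1450822_at and 0 for Mpeg1. The diets overlapped in every member. How often such counts arise over all probe sets is not given, so nothing is read from them. Here 0 of 27022 probe sets were called (0%), with 2266 at an unadjusted p under 0.05 and a lowest adjusted p of 0.176. The dim probe set 1450822_at gave -0.19, -0.06 and 0.13 in the 3 diet comparisons when no filter was used, with no call.

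**Figure D3:**
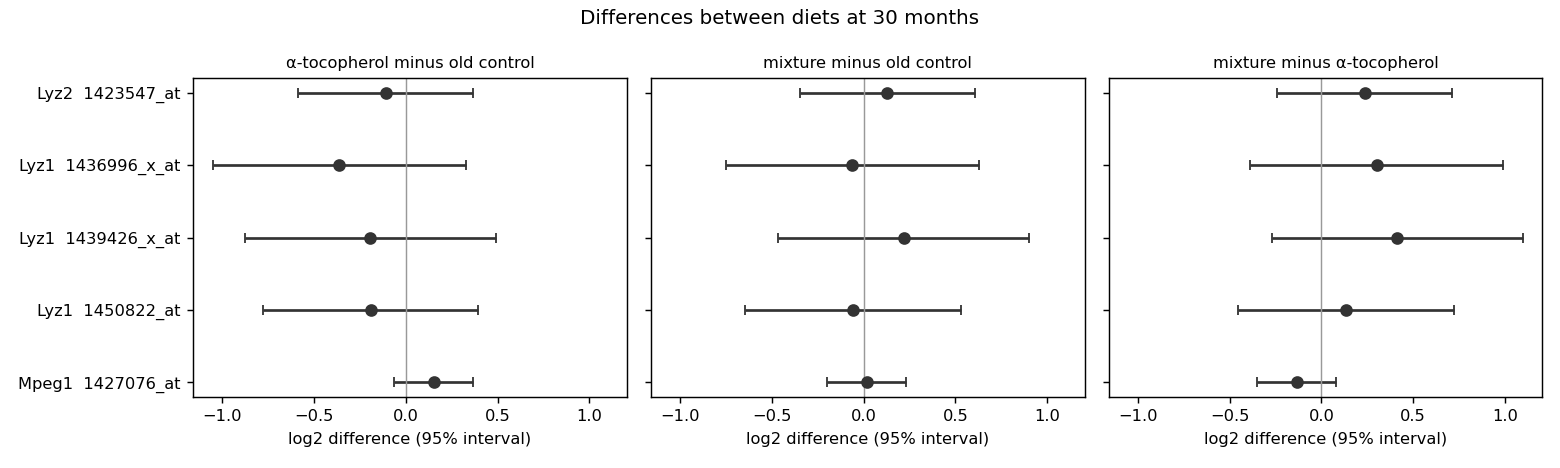
Difference between diets at 30 months on the log2(signal + 16) scale for each member probe set (points) with its 95% interval (lines, n = 5 mice per group). Every interval crosses 0, and those of Mpeg1 are the narrowest.

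Old control mouse 3, with the highest lysozyme signals, also carried the highest signals of many blood myeloid genes. Plac8, a gene of monocytes and other immune cells, had 3370 there and 160 to 324 in the other 19 mice. Lcn2, which encodes an iron-sequestering antimicrobial protein of neutrophils and of reactive astrocytes, had 2275 there and 5.3 to 131 elsewhere. The calprotectin genes S100a8 and S100a9 had 1028 and 798, against 52.5 to 414 and 9.8 to 347. Chil3, a chitinase-like protein of myeloid cells, had 485 against 4.3 to 137, and Lrg1, an acute-phase glycoprotein, had 478 against 29.5 to 211.

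The pattern did not cover all such markers. Mouse 3 was the highest of 20 for 8 of 14 neutrophil and 5 of 10 monocyte markers, 7 of 17 genes of phagocyte killing, 6 of 18 myeloid regulators, 3 of 14 border macrophage and 0 of 19 microglia markers. Of all tested probe sets, 8.47% were highest in it. That share covers only probe sets that passed the filter, whereas the list counts include dim ones, so the sets are unlike. Of the neutrophil and monocyte markers highest in mouse 3, S100a8, S100a9, Camp, Lcn2, Cxcr2, Lrg1, Chil3 and Treml4 lay below the filter. Other neutrophil granule genes lay within the range of the other mice, with Ngp at 369 (180 to 463), Mpo at 278 (22.7 to 297), Elane at 124 (41.1 to 309) and Mmp8 at 196 (121 to 349). The monocyte receptor Ccr2 was also within range, at 168 against 115 to 276. The summed signal of the neutrophil list was 2414 to 3497 in α-tocopherol, 2333 to 3194 in mixture, 2298 to 7773 in old control and 2785 to 3310 in young control mice, and 7773 was mouse 3. The summed monocyte signal was 14677 in mouse 3, the highest of old controls, and reached 14384 in young controls. Nr4a1 made up the largest part of this sum, with 5896 in mouse 3 and 9969 to 10676 in young controls. The sum therefore says little of the other monocyte markers. Mouse 3 had the lowest Ttr signal of all 20 mice, 8129, Ttr being the main product of the choroid plexus. The part of such cells or of RNA quality in the lysozyme signals was not tested.

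**Figure D4:**
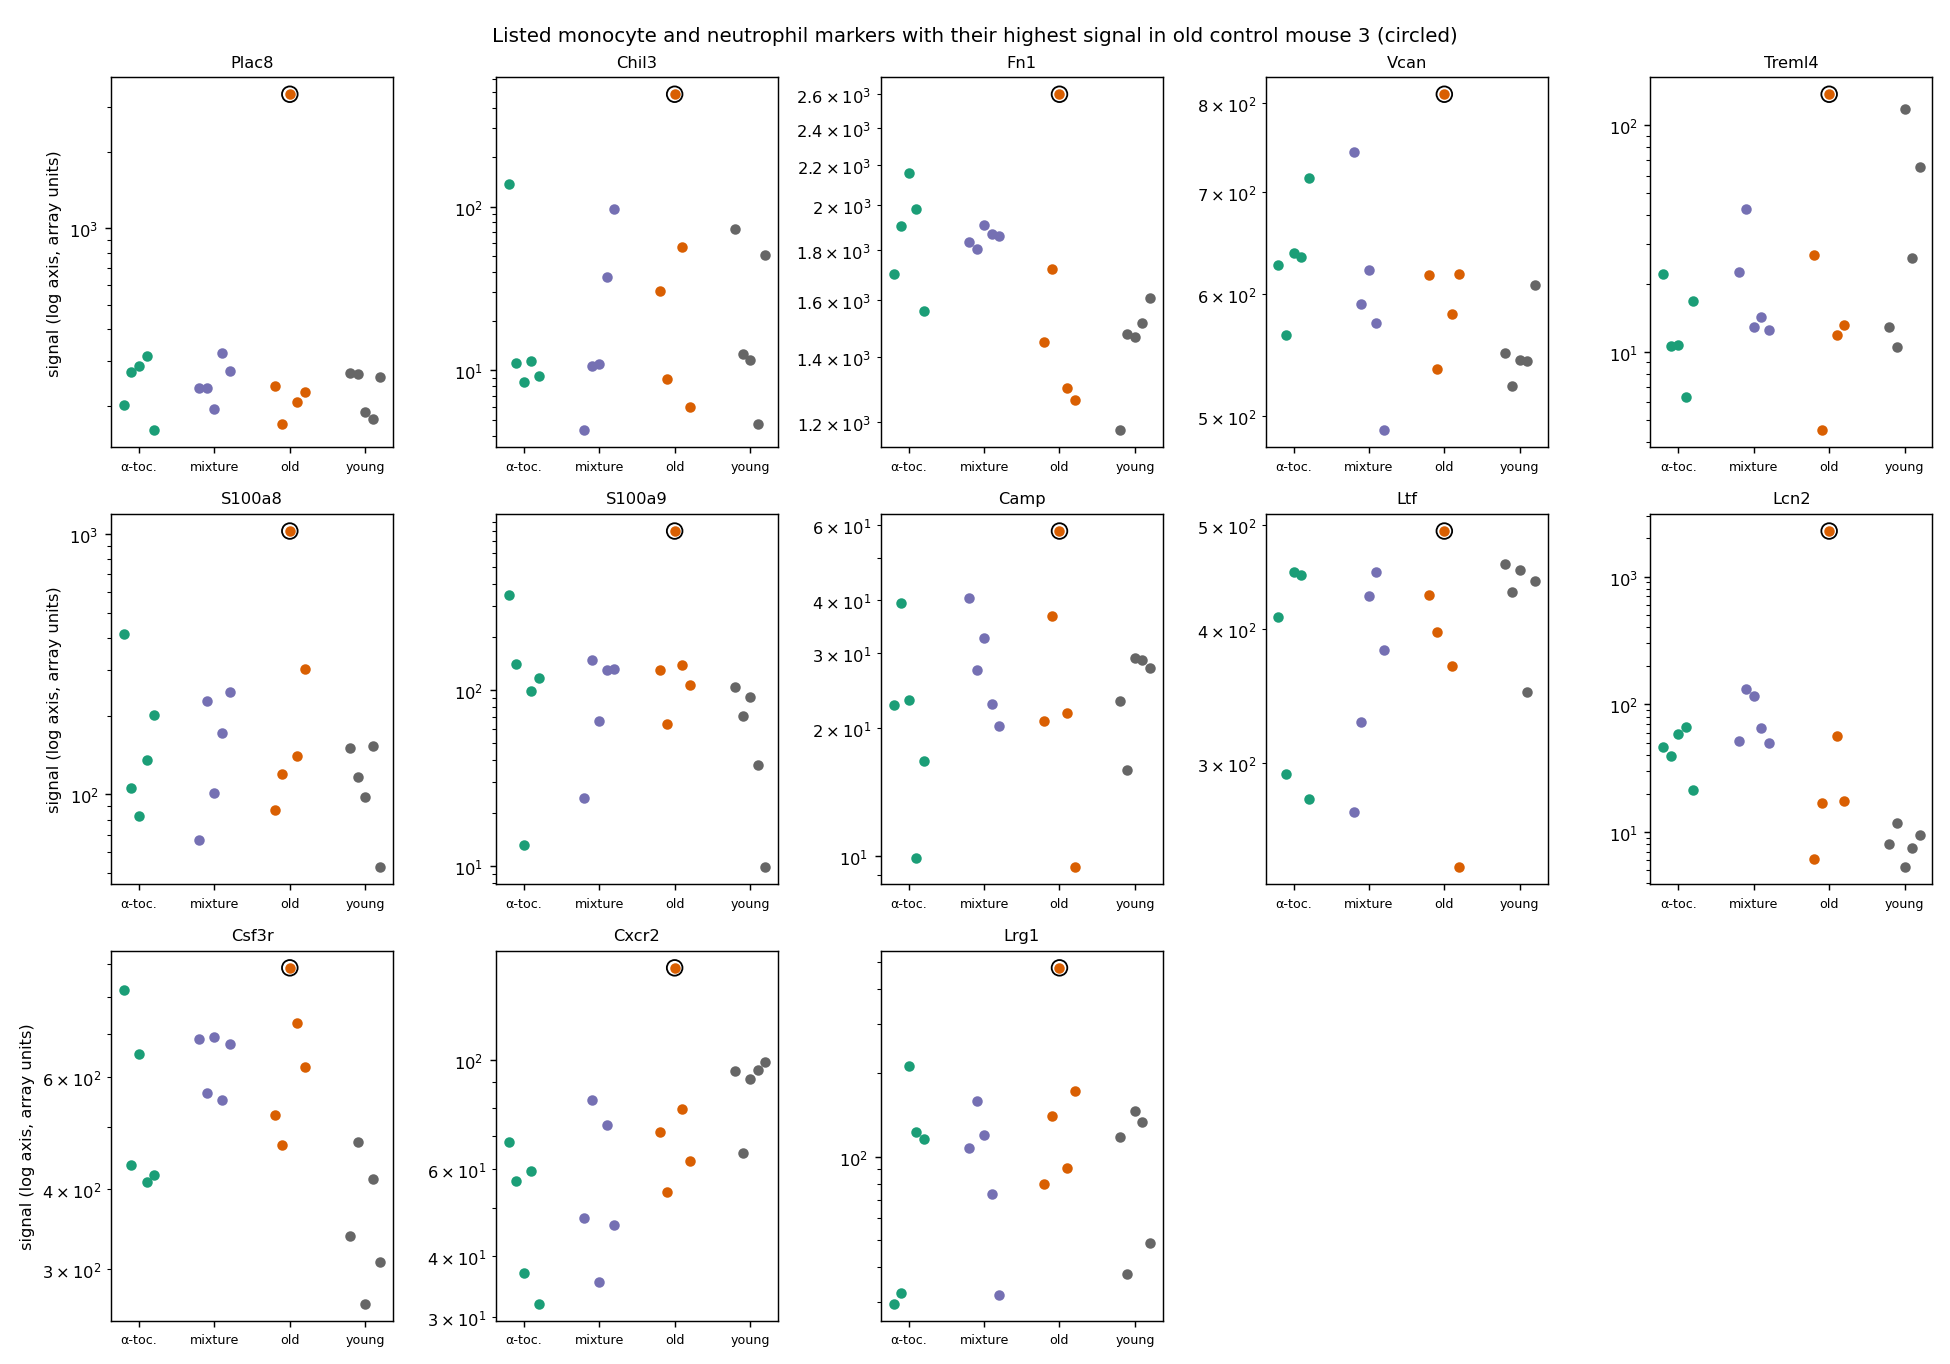
Signals on log axes of the 13 listed monocyte and neutrophil markers that are highest in old control mouse 3 (ringed), for single mice of each group (α-toc., α-tocopherol). They were drawn because mouse 3 is highest, and the gap to the next mouse is wide for Plac8 and Lcn2 and narrow for Ltf and Treml4.

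The signals of single old mice were set beside those of 3 marker lists, a choice made after the data were seen (15 relations, 15 old mice, diet means removed). Mpeg1 followed the list of activated microglia genes at r = 0.754 (adjusted permutation p = 0.04725) and rho = 0.718 (adjusted permutation p = 0.03035), and at r = 0.751 without mouse 3 and 0.676 without the 2 mice farthest from the median. The adjusted p of rho was 0.05617 without mouse 3, past the threshold no longer. With the same list Lyz1 1439426_x_at also passed by rank, at rho = 0.629 (adjusted permutation p = 0.0389, and 0.0655 without mouse 3) with r = 0.431 (adjusted permutation p = 0.0826). Lyz2 had r = 0.496 and rho = 0.575 with it (adjusted permutation p = 0.0565 and 0.0852), and r = 0.678 without the 2 farthest mice. Whether Mpeg1 and the lysozyme probe sets differ in this relation was not tested. Lyz2, 1436996_x_at and 1439426_x_at followed the neutrophil list at r = 0.863, 0.798 and 0.898 (adjusted permutation p = 0.05652 each), with rho of 0.714, 0.636 and 0.796 (adjusted permutation p = 0.03035, 0.03199 and 0.03035). That relation passed by rank only with mouse 3. Without it r was 0.407, 0.424 and 0.433 (adjusted permutation p = 0.233 each), with adjusted permutation p of rho at 0.228, 0.228 and 0.156. Without the 2 mice farthest from the median, old control mouse 3 and α-tocopherol mouse 1, r was 0.53, 0.409 and 0.609, with no test. With the microglia list, 1436996_x_at had r = 0.258 over all 15 mice and 0.717 without mouse 3 (adjusted permutation p = 0.033), but 0.062 without the 2 mice farthest from the median. Mpeg1 had 0.399 and 0.454 (adjusted permutation p = 0.262 and 0.218), and 0.028 without the same 2 farthest mice.

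The genes whose signal most resembled Lyz2 over all 20 mice, after removing group means, were Ier3 (r = 0.834), an early response gene, Ifi47 (0.834) and Iigp1 (0.799), both interferon-inducible GTPases, the lysosomal protease gene Ctsc (0.815) and the water channel gene Aqp1 (0.799). In mouse 3 they had signals of 2534, 1824, 2375, 2790 and 714, the highest of its group for each. Without mouse 3 their r with Lyz2 was 0.483, 0.342, -0.06, 0.211 and 0.320, and 0 of the 5 remained among the nearest 5. Mpeg1 was most like Zfp91 (0.842), a zinc finger protein gene, Etfrf1 (0.761), Smurf2 (0.758), a ubiquitin ligase gene, Rabggta (0.744), which encodes a subunit of Rab geranylgeranyl transferase, and Cacnb2 (0.736), a calcium channel subunit gene. Of these, 4 of 5 remained without mouse 3, which lay inside its group for Mpeg1. Over the 15 old mice alone, r of the 5 with Mpeg1 was 0.707, 0.677, 0.549, 0.696 and 0.556 in the same order. These r are descriptions from a search over 13351 genes.

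Of the 8 other lysozyme-like genes listed, 1 passed the filter on dim probe sets. Spaca3, a sperm lysozyme-like protein gene, fell by 0.90 ± 0.28 (log2 ± SE, limma adjusted p = 0.0306) in old against young controls. It averaged 740 ± 381 in old and 1247 ± 177 in young controls (SD, n = 5), and it no longer passed when some single mice were left out (highest adjusted p = 0.0874). Of the 11 MACPF genes listed 6 were tested, of which 1 rose and 0 fell. It was Astn1, a neuronal migration gene, by 0.23 ± 0.08 (limma adjusted p = 0.0428), and 0.0930 without mouse 3. The pore-forming Prf1 of lymphocytes differed by -0.06 (limma adjusted p = 0.824). Over all 13351 genes 11.7% rose and 9.3% fell, with a median log2 difference of -0.02.

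In a share close to the 11.7% of all genes that rose, genes of the phagocyte's other weapons did so in 1 of 8 cases. It was Cyba, the p22phox subunit of the phagocyte oxidase, by 0.71 ± 0.15 (limma adjusted p = 0.00312), at 769 ± 144 in old and 462 ± 66 in young controls. Cybb, which encodes the catalytic partner of Cyba, differed by 0.31 (limma adjusted p = 0.285), and the list's median was 0.28. Of 17 myeloid regulators 5 rose and 0 fell, with a median of 0.17. They were Sall1, a microglial transcription factor (0.72), Cebpa (0.56), the receptor genes Csf1r (0.57) and Csf3r (0.81), and Cebpd (1.19), the last chosen for naming beyond the 4 of the rule. Spi1, which encodes PU.1, differed by 0.16 (limma adjusted p = 0.440). In the fit with the β-actin covariate, 2 of the 5 were called, since Csf1r, Csf3r and Cebpd were not (adjusted p = 0.106, 0.187 and 0.200).

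Microglia and lysosome genes mostly rose with age. Of 19 microglia markers 13 rose and 1 fell, with a median of 0.51, and the complement genes C1qa and C1qc rose by 0.99 ± 0.12 and 1.04 ± 0.12 (limma adjusted p = 1.84e-05 each). Ctss, a lysosomal protease, and Tyrobp, a signalling adaptor, rose by 0.67 and 0.83. Among other defining microglia markers, Trem2 rose by 1.90 and Cx3cr1 by 0.60, while Tmem119 differed by 0.09 (limma adjusted p = 0.00825, 0.0315 and 0.452). P2ry12, a receptor of resting microglia, was the one that fell, by 0.41 (limma adjusted p = 0.0248), and no longer passed without mouse 3 (0.0743). Of 17 activated microglia genes 10 rose and 1 fell, with a median of 0.35, with the smallest p for Ctsd (0.66), Cd52 (1.30), Ctsz (0.98) and Clec7a (0.80) and larger rises in Ccl6 (1.40) and Lgals3 (1.36), and Igf1 fell by 0.67. Of 23 lysosome genes 15 rose and 0 fell, with the smallest p for Npc2, Ctss, Ctsd and Grn (0.85, 0.67, 0.66 and 0.67), and 7 rose with the β-actin covariate. The astrocyte list rose in 9 of 10 members and the list of neocortical neurons in 3 of 12.

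The markers of other myeloid, blood and bordering cells are set beside the 11.7% of all 13351 genes that rose and the 9.3% that fell. In lists this short, a count near those shares says nothing of the cell type. Of 7 border macrophage genes 0 rose and 2 fell, the mannose receptor Mrc1 by 0.61 ± 0.14 (limma adjusted p = 0.00552) and Pf4 by 0.42 (0.0493, and 0.0573 without mouse 3). Of 7 monocyte genes 0 passed the threshold. Of 6 neutrophil genes 1 rose, Csf3r, and 2 fell, Fcnb by 0.80 and Mmp8 by 0.65, each lost when some single mice were left out (highest adjusted p = 0.0820 and 0.0711). Of 6 lymphocyte genes 1 rose, Ighm by 0.89, and of 8 dendritic cell genes 3 rose, Cd74, H2-Ab1 and H2-Aa, all of antigen presentation by major histocompatibility complex class II. Of 3 Paneth cell genes 0 passed, and the intestinal lectin Itln1 had signals of 10.1 to 22.9 in old and 14.8 to 28.0 in young controls, below the filter. Of 13 meningeal genes 0 passed. Of 8 choroid plexus genes 1 fell, Kl by 1.05 (limma adjusted p = 0.0494), and it no longer passed without mouse 3 (0.139). Of 9 endothelial genes 2 fell, Cdh5 and Cldn5, each lost when some single mice were left out (highest adjusted p = 0.0916 and 0.110). The 4 red cell genes measured lay below the filter, with Hba-a1 at 35.5 to 223 in old and 74.6 to 188 in young controls. The differences between these lists were not tested.

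**Figure D5:**
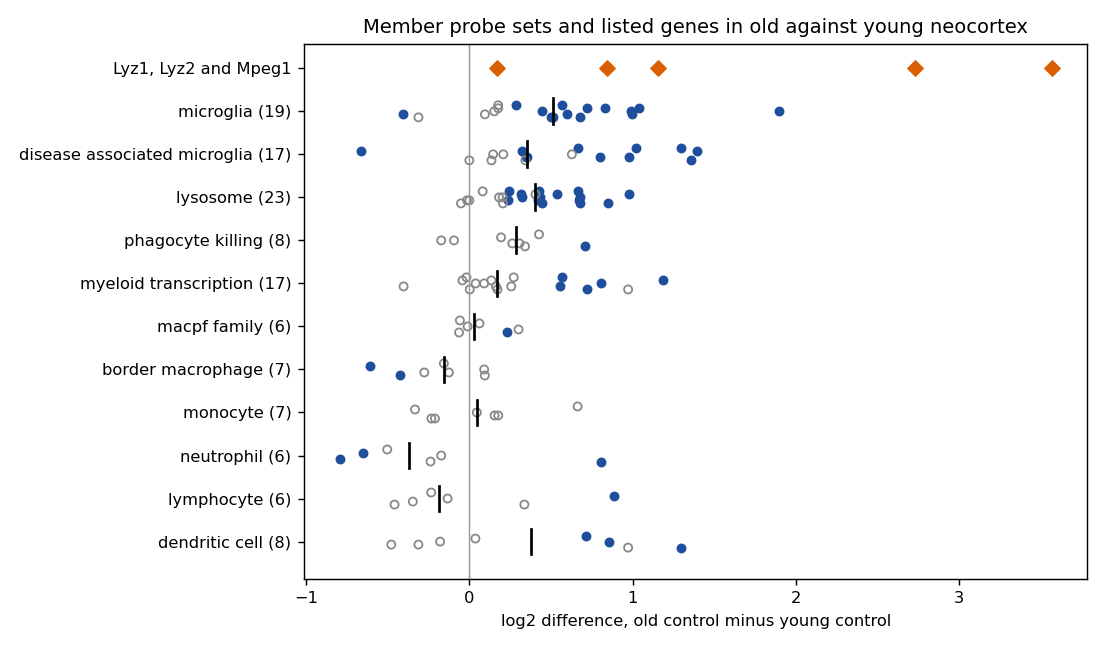
Log2 difference of old control minus young control for the member probe sets (diamonds, no test) and for the tested genes of each list (circles, filled where limma's adjusted p is under 0.05; black bars are medians, and the number of genes is in brackets). Most microglia and lysosome genes lie right of 0, and the x_at pair of Lyz1 lies farthest right.

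With the diets few of these genes moved. No listed gene passed the threshold between the mixture and α-tocopherol groups or between α-tocopherol mice and old controls (limma, 0 called over all probe sets in both comparisons). In mixture against old controls, 1 of 6 MACPF genes fell (Prf1 by 0.60, limma adjusted p = 0.0492, with its other tested probe set differing in sign). In the same comparison 1 of 19 microglia genes rose (P2ry12 by 0.50, adjusted p = 0.0304) and 1 of 23 lysosome genes fell (Psap by 0.34, adjusted p = 0.0147), where 1.03% of genes rose and 2.67% fell. Markers of bordering tissue and of neurons were called there too. Of 8 choroid plexus genes 1 rose (Kl by 1.48, adjusted p = 0.0304), of 13 meningeal genes 1 rose (Islr by 0.44, adjusted p = 0.0392) and of 12 neocortical neuron genes 1 fell (Nrgn by 0.42, adjusted p = 0.00938). The summed signal of the choroid plexus list was 32418 to 39447 in mixture mice and 10412 to 52809 in old controls, lowest in mouse 3, and that of the meningeal list was 8969 to 11751 and 7179 to 10767 in the same order. Their part in the diet results was not tested. These 6 genes are named because they were all the listed ones called. Without old control mouse 3, 2 of the 6 passed, Psap and Nrgn (adjusted p = 0.0430 and 0.0281), and 0 of the 6 passed with the β-actin covariate.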

How the data were processed

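Signals of 45101 probe sets on 20 arrays were used as deposited. Per the labels' protocols, poly(A) RNA was amplified with an oligo-dT primer and labelled as biotin cRNA. The deposited values are linear signal intensity, which the submitters' processing notes tie to GCOS without a version. The 2% trimmed mean of every column was 1000, which shows that the authors' intensity was scaled to that level. Of the background correction, detection calls and genome build, nothing is stated (not given in the sources used here). After scaling, a shift of all messenger RNA cannot be seen, and the number of arrays limits the precision.

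Symbols came from the platform annotation, updated through gene identifiers. Of 45037 non-control probe sets, 34945 had 1 symbol, 932 several and 9160 none. Of those with 1, 34741 matched the RefSeq table of GRCm38.p6. All 3 member genes matched the RefSeq promoter table. Signals were turned into log2(signal + 16), and a fold on this scale understates changes of dim genes. The top 60% of probe sets by mean over all arrays, 27022, entered limma 3.58.1 under R 4.3.3 (lmFit, eBayes with an intensity trend, 4 group means, Benjamini-Hochberg adjustment, threshold 0.05). Of the 5 members 4 passed. Counts of listed genes used each gene's brightest probe set with 1 symbol, adjusted over all probe sets tested. Standard errors are limma's. Correlations used scipy 1.17.1 and permutations within diet groups. The scripts were tested on simulated data.

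The members and lists were chosen with earlier results of these data known, and the gene lists came from textbook knowledge. Named were all members, the 5 genes most like the Lyz2 and Mpeg1 probe sets, up to 4 called genes per list with the smallest p, and part of the defining markers. Cebpd, Cybb, Spi1, Igf1, Elane, Mpo, Mmp8, Lcn2, Lrg1, Nr4a1, Treml4, Cxcr2, Ighm, Ccl6, Lgals3 and the genes called under the mixture were named after their values were seen. The labels state 1 array per animal, so p-values measure the spread between mice. Alternatives were the added constant, normalization, filter, trend, block, groups in the fit and leaving out each mouse. Added after seeing the data were the β-actin covariate, the likeness without old control mouse 3 and the relations with marker lists.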

Additional observations from a re-analysis of the deposited data

Results flagged for a closer look

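In the signal as deposited, old control mouse 3 stood far above the other mice of its group in 3 lysozyme probe sets. Its signal was 2837 for Lyz2, 4554 for 1436996_x_at and 1478 for 1439426_x_at, and the gap to the next mouse made up 0.775, 0.790 and 0.826 of the group's range, where 0.710 is Dixon's critical value for 5 samples. Young control mouse 2 stood above its group at 249 for Lyz1 1450822_at, with a gap of 0.756 of the range. These were 4 of 20 groups of 5 mice examined, and chance flags about 5% of groups. On the log2(signal + 16) scale 0 of 20 groups passed the same critical value, so these gaps depend on the scale. The lysozyme probe sets are correlated, so the 3 values of mouse 3 are not separate observations.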

How the results depend on the processing

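None of the 4 tested members was called in a diet comparison under any setting run. Their differences with age kept their direction in all. The dim probe set 1450822_at was not followed through the age settings. Signs of small diet differences turned. For α-tocopherol against old controls, Lyz2 gave 0.072 with the β-actin covariate, and leaving out single mice gave -0.31 to 0.20 for Lyz2 and -0.41 to 0.17 for 1439426_x_at, the highest without old control mouse 3. For mixture against old controls, 1436996_x_at gave 0.33 with the β-actin covariate, and Mpeg1 gave -0.028 with quantile normalization, -0.056 with array medians set equal and -0.068 with the covariate. Leaving out single mice there gave -0.077 to 0.44 for Lyz2, -0.31 to 0.29 for 1436996_x_at and -0.024 to 0.045 for Mpeg1. The number of probe sets called for mixture against old controls (970) was 132 with quantile normalization, 492 with no filter, 603 with 1 probe set per gene, 358 with no intensity trend, 476 with only these groups in the fit and 0 with the covariate. It ranged from 280 to 971 when single mice were left out, at 284 without old control mouse 3, 435 without mouse 4, 529 without mouse 5, 487 without mixture mouse 4 and 280 without mixture mouse 5. Mixture against α-tocopherol, with 0 called, gave 0 to 64, the 64 without α-tocopherol mouse 5. Old against young controls, with 5097 called, gave 3039 with 1 probe set per gene and 2028 with the covariate. Correlations of 1450822_at without single mice ranged from -0.023 to 0.343 with Lyz2 and from -0.21 to 0.231 with 1436996_x_at. Setting array medians equal moved the median age difference of all probe sets to 0.08, against -0.05 as deposited. Same-numbered mice correlated at -0.11 to 0.203 after removing group means (median 0.036), with 7 of 30 pairs above 0.1. Differently numbered mice correlated at -0.29 to 0.267 (median -0.013), with 14 of 120 pairs above 0.1. Of 20 arrays, 4 correlated best with their own number. Whether the numbers stand for a pairing or a batch cannot be told from these values. With the replicate number as a block, 1338 probe sets were called for mixture against old controls and 5409 for old against young controls. No diet call of a tested member changed. The causes of these shifts were not tested. Dim probe sets limit what the young lysozyme signals can show.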
